A study of Arabidopsis thaliana with 18 samples.

Results

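The regions described here were the intervals of the Arabidopsis genome in which a peak was found with the FUL-AG-SEP3 protein mixture and with no other mixture of the study. They were chosen by presence and absence in the 5 deposited peak lists. All nuclear peaks of the lists were merged into 8081 intervals wherever they overlapped by at least 1 bp, and the 969 intervals that held a FUL-AG-SEP3 peak and no peak of FUL, FUL-AG, FUL-SEP3 or FUL-SOC1 were kept. Each of them held a single FUL-AG-SEP3 peak. They are called FUL-AG-SEP3-only sites below, and the 3467 nuclear FUL-AG-SEP3 peaks that overlapped a peak of another list are called partnered peaks. The 969 sites were 21.8% of the 4436 nuclear FUL-AG-SEP3 peaks. Among the intervals with a peak of a given list, those with no other list were 969 of 4427 for FUL-AG-SEP3 and 2206 of 4804 for FUL-SOC1. They were 588 of 2569 for FUL, 317 of 2808 for FUL-AG and 68 of 1375 for FUL-SEP3. The FUL-AG and FUL-SEP3 lists were shorter than the FUL-AG-SEP3 list, with 2814 and 1379 nuclear peaks.

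In DAP-seq, protein made in a wheat germ extract is mixed with a library of fragmented genomic DNA, the protein is pulled down, and the fragments that came with it are sequenced. The study used genomic DNA from leaves of 2-week-old Col-0 seedlings, 400 ng of library per sample, and 5 mixtures with 3 replicates each: FUL alone, FUL with AG, FUL with SEP3, FUL with SOC1, and FUL with AG and SEP3. An input without protein, also in 3 replicates, served to correct the background. Only FUL carried a tag (3xFLAG) in every mixture, so a fragment was recovered through FUL, and the plasmids of the proteins in a mixture were added in equal molar amounts up to a fixed total. A mixture can hold FUL homodimers and dimers beside the intended complex, and the lists do not tell which form held a fragment. The 3 replicates of a mixture were combined before peaks were called, so no list has a spread between replicates and no difference between mixtures could be tested. A site absent from a list had no peak below the q-value of 0.05 there, which is not the same as having no signal.

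MADS-domain proteins bind DNA as dimers at the CArG-box, a 10 bp element of 2 C, 6 bases that are A or T, and 2 G. A tetramer joins a pair of dimers and can hold a pair of boxes with the DNA between them looped. FUL (FRUITFULL) acts in the floral transition with SOC1, and in the fruit valves, where AG (AGAMOUS), which specifies carpels, and SEP3 (SEPALLATA3), which bridges MADS-domain proteins into tetramers, are present.

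The sequences that the results turn on are given first, all on the plus strand of TAIR10, with the CArG-box in capitals. Those beside flower and fruit genes show the best box of the site with 10 bases on either side, and the best box is the one with the fewest mismatches to the element in the 200 bp around the summit, with the box nearest to the summit taken among equals.
SUP (chr3:8241310-8241339): atccacttttCCATTTTTGGtataaaactt
YUC2 (chr4:7724258-7724287): acttttctttCCATTTTAGGtataaaaata
AGL6 (chr2:18804105-18804134): aagtagatttCCATTTTTAGgaatctagct
NGA2 (chr3:22951637-22951666): aacccacttgCCATTTTTGTataattaggt
CLV3 (chr2:11666734-11666763): atggatgataCCTTAATCGGataatattat
CUC1 (chr3:5107660-5107689): tttccaacgaCCAAAAAAGCcgcctaggtt
AGL16 (chr3:21179851-21179880): ctaaaccatcCATAAGAAGGaaataaccaa
SUP and YUC2 had boxes with no mismatch, and the 7 bases to the right of the box, tataaaa, were the same at both. AGL6, NGA2, CLV3 and CUC1 had boxes with 1 mismatch, and AGL16 had 2 mismatches.

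The 200 bp around the summit at SUP show the only box of at most 1 mismatch in its window.
SUP (chr3:8241235-8241434): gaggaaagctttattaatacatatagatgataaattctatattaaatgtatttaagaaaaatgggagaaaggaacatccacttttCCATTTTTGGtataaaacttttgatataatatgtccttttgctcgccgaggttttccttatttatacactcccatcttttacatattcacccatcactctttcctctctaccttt
At the strongest sites of the whole set the best boxes were less complete. The strongest, beside AT1G40076, held a box with 1 mismatch at its summit, and the next, in AT3G09000, a box with 2 mismatches.
AT1G40076 (chr1:15427287-15427316): tactaggataCCCTAATTGGgaaaaagata
AT3G09000 (chr3:2746347-2746376): ggtaatgtttCCATTTTTATtttgcttcta

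Pairs of boxes are shown for sites in which 1 box was exact and the other had 1 mismatch, the most complete pairs that these sites held, and they were picked after their values were seen. Both boxes are in capitals.
AT5G11960 (chr5:3858024-3858065): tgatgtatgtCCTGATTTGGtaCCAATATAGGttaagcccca
AT3G30220 (chr3:11878587-11878630): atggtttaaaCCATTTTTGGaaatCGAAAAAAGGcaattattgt
MYB4 (chr4:18055158-18055204): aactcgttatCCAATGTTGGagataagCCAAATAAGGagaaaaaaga
PP2A-1 (chr1:22018290-22018362): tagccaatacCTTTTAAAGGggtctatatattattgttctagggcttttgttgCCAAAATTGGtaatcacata
YUC2 (chr4:7724258-7724357): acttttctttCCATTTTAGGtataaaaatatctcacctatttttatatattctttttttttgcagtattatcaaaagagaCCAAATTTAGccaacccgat
The distance between box centres in these pairs was 12 bp beside AT5G11960, 14 bp beside AT3G30220, 17 bp beside MYB4, 43 bp beside PP2A-1 and 70 bp beside YUC2. The site beside PP2A-1 lay in an intron of the neighbouring gene AT1G59820, 4182 bp from the start of PP2A-1. A distance of 17 bp was the most frequent one among the sites, and the other 7 pairs at that distance had 1 mismatch in each box.
NRT1.5 (chr1:11717911-11717957): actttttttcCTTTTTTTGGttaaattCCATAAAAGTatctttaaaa
AT2G47500 (chr2:19491996-19492042): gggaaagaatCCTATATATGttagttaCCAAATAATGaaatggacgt
AT1G11230 (chr1:3766385-3766431): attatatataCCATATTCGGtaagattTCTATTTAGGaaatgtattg
UMAMIT1 (chr5:18387028-18387074): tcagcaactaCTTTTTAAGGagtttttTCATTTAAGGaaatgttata
LAS (chr1:20762933-20762979): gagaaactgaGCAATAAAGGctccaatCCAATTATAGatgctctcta
AT4G29790 (chr4:14583733-14583779): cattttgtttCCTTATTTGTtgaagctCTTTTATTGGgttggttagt
AT5G24750 (chr5:8493901-8493947): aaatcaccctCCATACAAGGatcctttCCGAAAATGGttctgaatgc

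The FUL-AG-SEP3-only sites were mostly weak peaks. The deposited fold enrichment sets the signal at the summit, over the combined replicates, against the local background. It ran from 1.56 to 4.89 at the sites with a median of 2.86, and from 1.66 to 9.70 at the partnered peaks with a median of 3.28. Ranked within the FUL-AG-SEP3 list, the sites had a median percentile of 30.7 and the partnered peaks one of 57.8. Peaks found only with FUL-SOC1 or only with FUL also stood low in their own lists, with median percentiles of 42.7 and 36.5. Only 2 sites (0.206%, 95% Wilson interval 0.0566% to 0.749%) were in the highest 10% of the list, against 444 partnered peaks (12.8%, 11.7% to 14.0%). Of the 100 strongest peaks of the list none was a site, of the 500 strongest 2 were, and of the 1000 strongest 27 were. The intervals cover counting error over regions only. Absence from the other lists and the height in this list are measured on the same protein and DNA, so these values describe the choice of the sites.

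The share of FUL-AG-SEP3 peaks without a partner fell from decile to decile of the list. It was 40.1% (35.6% to 44.7%) in the lowest decile, with folds from 1.56 to 2.47, and 0.451% (0.124% to 1.63%) in the highest, with folds from 4.33 to 9.70. The middle deciles stood near the share over the whole list, with 26.8% at folds of 3 to 3.13 and 24.8% at folds just above that. The sites were also narrower, with a median width of 234 bp (204 to 573 bp) against 284 bp (204 to 1006 bp) for partnered peaks. Peaks found only with FUL-SOC1 or only with FUL were similar to the sites in this, with median widths of 240 bp and 229 bp. A q-value below 0.0001 was reached by 617 sites (63.7%), where it was reached by 80.7% of all nuclear FUL-AG-SEP3 peaks. The fold values are stepped, and 698 of the 969 sites shared theirs with another site, so small differences in rank carry little.

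**Figure D1:**
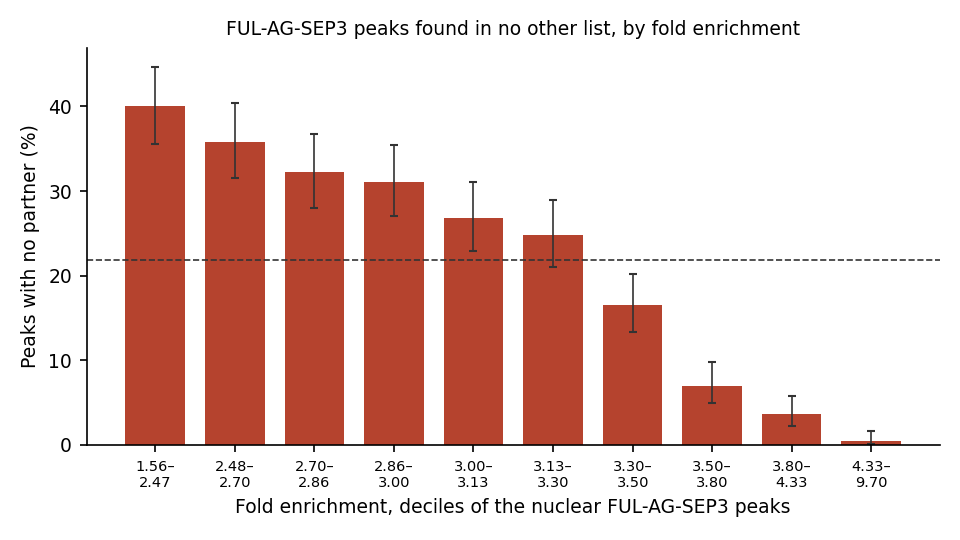
Share of nuclear FUL-AG-SEP3 peaks with no partner in another list (bars, in percent, with 95% Wilson intervals) in each decile of the list by fold enrichment (x axis, the range of folds in the decile), and the share over the whole list (dashed line, 21.8%). The share went down from 40.1% in the lowest decile to 0.451% in the highest.

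The border of the rule ran through peaks of ordinary height. The sites closest to a peak of another list lay 4 bp (chr2:13637538-13637905, 3' UTR, nearest start AT2G32050, fold 2.70), 61 bp (chr3:5020811-5021029, coding exon, HEME1, fold 2.26) and 94 bp (chr1:14678703-14678933, intergenic, AT1G39511, fold 2.75) from a FUL-AG peak. Just outside the rule, a peak in an exon of a non-coding or pseudogene transcript with NDL2 as the nearest start (fold 2.81) overlapped a FUL-AG peak by 7 bp, a peak in an intron beside SHT (fold 2.86) overlapped a FUL-SOC1 peak by 54 bp, and a peak beside AT3G42083 (fold 1.92) overlapped a FUL-AG peak by 61 bp. Such border cases were few. Of the sites, 12 (1.24%) lay within 200 bp of a peak of another list and 119 (12.3%) within 1000 bp, and the median gap was 5096 bp, with a range of 4 to 72014 bp. The nearest other peak was of FUL-SOC1 at 523 sites (54.0%), of FUL at 215 (22.2%), of FUL-AG at 180 (18.6%) and of FUL-SEP3 at 51 (5.26%). Those lists made up 41.6%, 22.2%, 24.3% and 11.9% of all nuclear peaks of the other mixtures, in the same order. Each peak is counted there, also where peaks of different lists overlap, so these shares and those of the nearest peaks are not like measures.

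The 10 sites with the highest fold enrichment were spread over the gene parts, and 1 of them had an exact box. The highest (chr1:15427170-15427423, fold 4.89, 4.11% of the list higher) was intergenic, 5114 bp downstream of the start of AT1G40076, a pseudogene. The sequence of this site had a near-identical copy elsewhere in the genome. The next (chr3:2746180-2746567, fold 4.43) lay in an intron of AT3G09000, a proline-rich protein gene. An intergenic site beside the non-coding gene AT5G01875 had a fold of 4.24. A site 486 bp upstream of the start of TAP46, which encodes a protein that associates with type 2A phosphatases, had a fold of 4.19 and lay in the 3' UTR of the neighbouring AT5G53010. The site in an intron of THO2, a subunit of the complex that packages messenger RNA for export, had a fold of 4.13, as had the site beside the non-coding gene AT2G04665.

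The remaining sites of the 10 had folds of 4.08 in an intron of the non-coding AT3G00890, 4.03 upstream of SUP, 3.98 in an intron of AT3G53180 with the pectin lyase-like gene AT3G53190 as the nearest start, and 3.98 in the coding exon of AT1G53325, an F-box-associated gene. SUP had the only exact box among the 10, and AT1G53325 the only pair, with its box centres 36 bp apart. The best box had 2 mismatches at AT3G09000, TAP46, THO2, AT3G00890 and AT3G53190. Of the gaps from the 10 to a peak of another mixture, the smallest was the 757 bp to a FUL-SOC1 peak at AT3G09000, and the largest was the 20131 bp to a FUL-AG peak at AT2G04665.

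CArG-boxes were more frequent at the FUL-AG-SEP3-only sites than in the genome, and less frequent than at partnered peaks. Within the 200 bp around the summit, an exact box was found at 65 sites (6.71%, 5.30% to 8.46%), and 1.19% of 118936 windows of the same width spaced over the genome held one. Windows shifted 1000 bp to the right of the same summits held one in 0.929% (0.489% to 1.76%). Partnered peaks held one in 16.4% (15.2% to 17.7%), intervals found only with FUL-SOC1 in 10.1% (8.88% to 11.4%) and intervals found only with FUL in 16.0% (13.2% to 19.2%). The interval of the sites lay above those of the shifted windows and below those of the other kinds of peaks compared. Intervals found only with FUL-AG or only with FUL-SEP3 were not examined for boxes. Those found only with FUL-SOC1 or only with FUL were not compared at like rank in their lists. Both strands were covered, since the element reads the same on both.

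With 1 mismatch allowed, a box was found at 571 sites (58.9%, 55.8% to 62.0%), against 22.2% of the genome windows and 21.8% (19.3% to 24.5%) of the shifted windows. The partnered peaks had 70.8% (69.3% to 72.3%), the FUL-SOC1-only intervals 64.3% and the FUL-only intervals 66.7%. In 389 sites (40.1%) the best box had 2 mismatches, and in 9 (0.929%) it had 3 or more. A match is a description of the letters in the window and does not show which letters were bound.

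**Figure D2:**
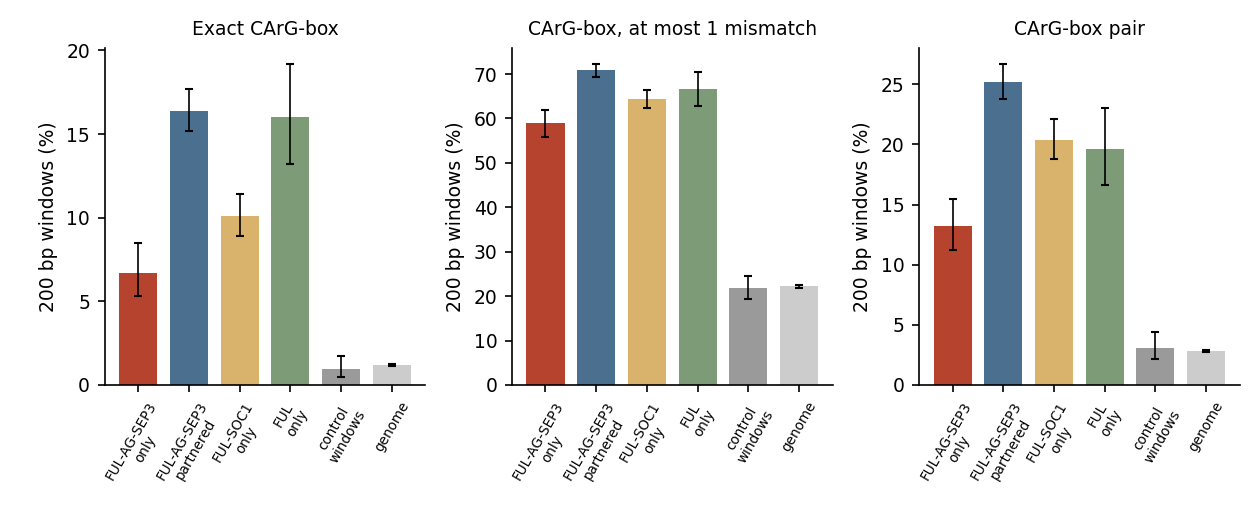
Share of 200 bp windows (in percent, bars with 95% Wilson intervals) that held an exact CArG-box, a box of at most 1 mismatch, and a pair of boxes, for FUL-AG-SEP3-only sites, partnered FUL-AG-SEP3 peaks, intervals found only with FUL-SOC1 or only with FUL, windows 1000 bp from the sites, and windows over the genome. The FUL-AG-SEP3-only sites were lowest among the kinds of peaks shown in each panel and above the shifted windows and the genome. Intervals found only with FUL-AG or only with FUL-SEP3 were not examined for boxes.

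The share of exact boxes was lower at the sites than at partnered peaks in each quartile of the list. In the lowest quartile of the FUL-AG-SEP3 list by fold, 5.83% of 412 sites and 11.3% of 691 partnered peaks had an exact box. The shares were 7.12% of 323 sites and 14.5% of 791 partnered peaks in the next quartile, 7.43% of 202 and 16.4% of 903 in the one above it, and 9.38% of 32 and 21.0% of 1082 in the highest. The difference was 5.46 percentage points (95% interval 2.02 to 8.65) in the lowest quartile, 7.42 (3.37 to 10.9) and 8.96 (3.96 to 12.8) in the quartiles above it. In the highest, with only 32 sites, it was 11.6 (-3.42 to 18.2). The intervals cover counting error over regions of a pooled list, which are not replicates, so they are no test. The quartiles were added after the data were seen. Fold was not held equal within a quartile, and only 2 sites lay in the highest decile of the list.

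**Figure D3:**
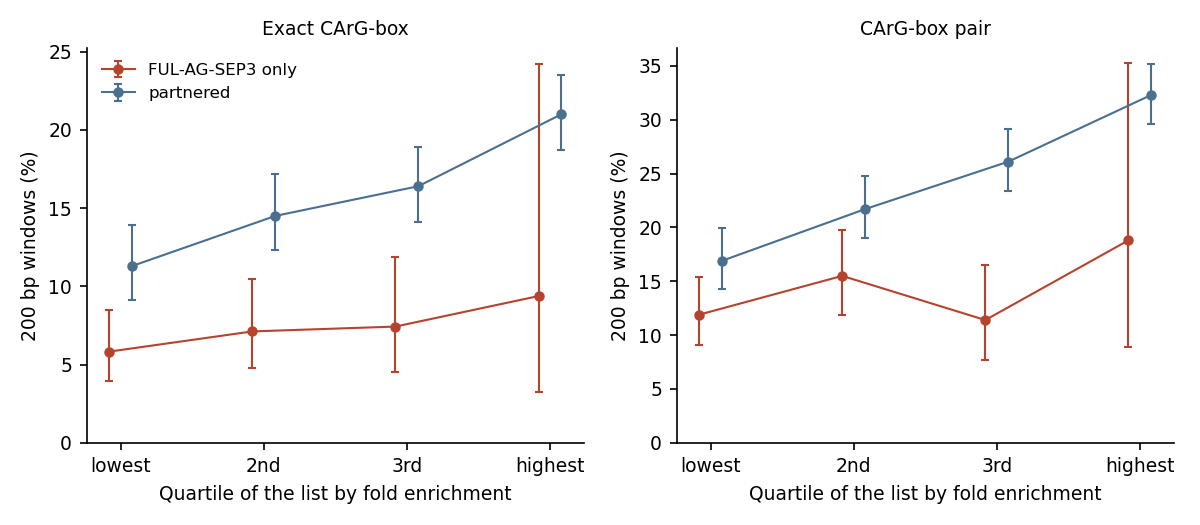
Share of 200 bp windows with an exact CArG-box and with a pair of boxes (points, in percent, with 95% Wilson intervals) in each quartile of the FUL-AG-SEP3 list by fold enrichment, for FUL-AG-SEP3-only sites and partnered peaks. The points of the sites lie below those of the partnered peaks in all quartiles, from 5.83% to 9.38% against 11.3% to 21.0% for exact boxes.

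The boxes at the sites were more often close to the summit than boxes in the shifted windows were to the middle. Of the 571 best boxes of at most 1 mismatch, 322 (56.4%, 52.3% to 60.4%) had their centre within 25 bp of the summit, with a median distance of 20.5 bp. At partnered peaks this was 61.8% (59.8% to 63.7%) with a median of 15.5 bp, and in the shifted windows 30.3% (24.5% to 36.8%) lay within 25 bp of the middle. Of the 65 exact boxes, 35 lay within 25 bp of the summit. The bases next to the box, 3 on each side, were A or T in at least 5 of the 6 places at 302 of the 571 boxes (52.9%, 48.8% to 57.0%). The same was seen at 58.4% (56.4% to 60.3%) of partnered boxes, 65.1% (60.2% to 69.6%) of FUL-only boxes, 38.4% (35.9% to 40.9%) of FUL-SOC1-only boxes and 31.8% (25.8% to 38.3%) of boxes in the shifted windows. The windows as a whole were similar in base composition, with a median of 65.5% A and T at the sites, 65.0% at partnered peaks and 63.5% over the genome.

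**Figure D4:**
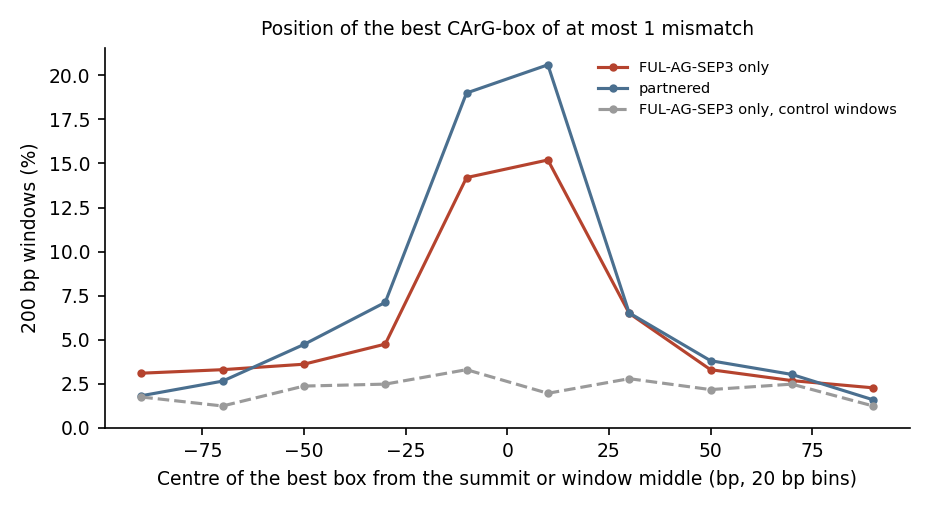
Position of the best CArG-box of at most 1 mismatch, as the share of all 200 bp windows (y axis, in percent) whose box centre fell in each 20 bp bin around the summit (x axis), for FUL-AG-SEP3-only sites, partnered peaks and windows 1000 bp from the sites. In the bins on either side of the summit the sites reached 14.2% and 15.2%, the partnered peaks 19.0% and 20.6%, and the shifted windows 3.30% and 1.96%.

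The place of the single mismatch differed between the groups. Positions are counted from 1 to 10 along the box, and because the element reads the same on both strands, positions 1 and 10 are the outer ones and 2 and 9 the inner ones of the C and G ends. Among the 506 sites whose best box had exactly 1 mismatch, it was at an outer position in 205 (40.5%, 36.3% to 44.8%), at an inner position in 157 (31.0%, 27.2% to 35.2%) and in the central 6 bases in 144 (28.5%, 24.7% to 32.5%). At partnered peaks the inner positions led, with 44.5% (42.3% to 46.8%), before the outer with 32.6% (30.5% to 34.7%) and the centre with 22.9% (21.0% to 24.8%). FUL-SOC1-only intervals had 47.0% outer, 38.8% inner and 14.2% central mismatches, and FUL-only intervals 24.8%, 61.4% and 13.8%. In the windows shifted from the sites, the shares were 42.6% (36% to 49.5%), 38.1% (31.7% to 45.0%) and 19.3% (14.5% to 25.3%). The sites thus had a higher share of central mismatches than each of these, with an interval that touched only that of the shifted windows and, at 24.7% to 24.8%, that of the partnered peaks.

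Pairs of boxes, the arrangement that a tetramer can hold, were found at 128 sites (13.2%, 11.2% to 15.5%). A pair was taken as a couple of boxes with at most 1 mismatch each and centres at least 10 bp apart, so that they did not overlap. Of the genome windows 2.80% held a pair and of the shifted windows 3.10% (2.18% to 4.39%). Partnered peaks had pairs in 25.2% (23.8% to 26.7%), FUL-SOC1-only intervals in 20.4% (18.8% to 22.1%) and FUL-only intervals in 19.6% (16.6% to 23.0%). None of the sites had a pair of exact boxes (0 of 969, which allows a share of up to 0.310%, taken as 3 counts), where partnered peaks had 17 (0.490%). Of the 128 pairs, 23 had 1 mismatch in all and 105 had 1 in each box. At 23 sites there were 3 or more boxes. By quartile of the list from the lowest to the highest, pairs were found at 11.9%, 15.5%, 11.4% and 18.8% of the sites and at 16.9%, 21.7%, 26.1% and 32.3% of the partnered peaks.

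The distance between the box centres ran from 11 to 159 bp at the sites, with a median of 52 bp, and from 10 to 181 bp at partnered peaks, with a median of 45 bp. FUL-only pairs were closer, with a median of 32 bp. A distance of up to 60 bp was seen in 57.8% (49.2% to 66.0%) of the pairs at the sites and 65.7% (62.5% to 68.8%) of partnered pairs, which overlapped in their intervals. The most frequent distance at the sites was 17 bp, at 8 sites, and 33 of the 875 partnered pairs had it too. Boxes on the same face of the DNA are a whole number of helical turns apart, taken as within 2 bp of a multiple of the turn of B-form DNA. This held for 55 of the 128 pairs (43.0%, 34.7% to 51.6%), for 45.3% (42.0% to 48.6%) of partnered pairs, for 36.4% (32.1% to 41.0%) of FUL-SOC1-only pairs and for 62.6% (53.5% to 70.9%) of FUL-only pairs, while 43.6% of all distances from 10 to 190 bp fall in that range. The share at the sites was close to that of the distances themselves. In the shifted windows it held for 7 of 30 pairs (23.3%, 11.8% to 40.9%) beside the sites, 45 of 92 (48.9%, 38.9% to 59.0%) beside partnered peaks, 30 of 62 (48.4%, 36.4% to 60.6%) beside FUL-SOC1-only peaks and 13 of 17 (76.5%, 52.7% to 90.4%) beside FUL-only peaks. The FUL-only share was thus not above that of its own shifted windows. Within 1 bp of a whole turn lay 26.6% (19.7% to 34.8%) of the pairs at the sites and 24.9% of all distances. A distance of 17 bp is not a whole number of turns.

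**Figure D5:**
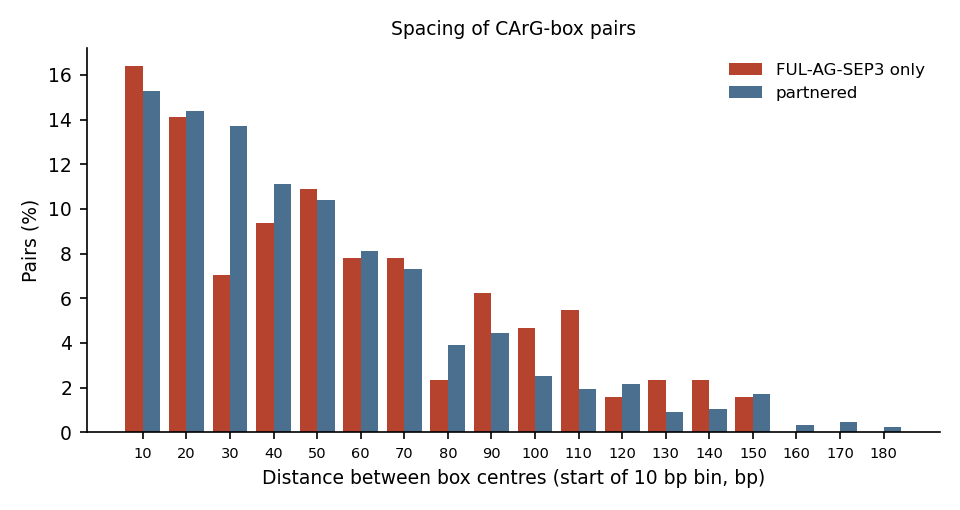
Distance between box centres (x axis, bins of 10 bp) in the CArG-box pairs of FUL-AG-SEP3-only sites (128 pairs) and partnered peaks (875 pairs), as a share of the pairs of each group (y axis, in percent). Both fell off with distance. The 200 bp window has fewer places for long distances, and the nearest was taken among pairs with equally few mismatches. Both favour short distances, so the fall is not a trait of the sites alone. The sites had 7.03% of their pairs (9 of 128) in the bin from 30 bp, where partnered peaks had 13.7%.

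The sites lay in and around genes much as partnered peaks did. The summit was intergenic at 389 sites (40.1%, 37.1% to 43.3%), in an intron at 228 (23.5%, 21.0% to 26.3%), in a coding exon at 168 (17.3%, 15.1% to 19.8%), in a non-coding or pseudogene exon at 83 (8.57%), in a 3' UTR at 57 (5.88%) and in a 5' UTR at 44 (4.54%). For partnered peaks the shares were 41.2%, 23.3%, 14.8%, 9.49%, 5.97% and 5.22%, and their intervals overlapped those of the sites in every gene part. Positions spaced evenly over the genome were intergenic in 35.9%, in an intron in 15.5% and in a coding exon in 28.4%. Against these, the sites were found more in introns and less in coding exons, and partnered peaks shared that. The nearest start of transcription was a median of 952 bp away (3 to 31390 bp) and within 1 kb at 505 sites (52.1%, 49.0% to 55.2%), against 50.9% of partnered peaks and 51% of genome positions. It was beyond 3 kb at 94 sites (9.70%) and at 9.55% of partnered peaks.

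The sites were spread over all chromosomes, with 236, 145, 209, 147 and 232 on chromosomes 1 to 5. These were 24.4%, 15.0%, 21.6%, 15.2% and 23.9% of the sites, where the chromosomes make up 25.5%, 16.5%, 19.7%, 15.6% and 22.6% of the genome. Within 5 Mb of the centromere, placed at the 1 Mb stretch with the fewest protein-coding starts, lay 346 sites (35.7%, 32.8% to 38.8%), 37.8% (36.2% to 39.4%) of partnered peaks and 40.7% of genome positions. Within 2.5 Mb these shares were 16.7% (14.5% to 19.2%), 19.1% (17.8% to 20.4%) and 21.0%. A near-identical copy elsewhere in the genome, a match of at least 90% identity over at least 50% of the peak, was found for 138 sites (14.2%, 12.2% to 16.6%) and 14.7% (13.5% to 15.9%) of partnered peaks. Reads from such copies can be placed at any of them, so the position of these 138 sites is less certain. The nearest gene was protein-coding at 745 sites (76.9%) and a pseudogene at 139 (14.3%). These shares were near those of partnered peaks, with 75.2% and 15.3%. Of all annotated genes, 72.4% were protein-coding and 12.8% pseudogenes.

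The 969 sites had 945 nearest genes, of which 24 had 2 sites and none had more. For 747 of these genes no other peak of any list was nearest to their start, and 198 were also nearest to a peak of another mixture. The same counts were not taken for the genes of other peaks, so it is unknown whether they were particular to the sites. The protein-coding nearest genes numbered 728, 2.65% of the 27444 in the annotation, and 8.91% had one of the more numerous partnered peaks. The gene lists that follow were read against those shares. Of 39 floral organ identity and flowering MADS genes, 2 (5.13%) had a site, and 18 (46.2%) had a partnered peak. Of 59 carpel and fruit patterning genes, 4 (6.78%) had a site and 13 (22.0%) a partnered peak. Of 34 gibberellin and auxin genes, 1 (2.94%) had a site and 3 (8.82%) a partnered peak.

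The site at SUP (SUPERMAN), a zinc-finger gene that sets the border between stamens and carpels, was the strongest of them (chr3:8241228-8241461, fold 4.03, 14.2% of the list higher). It lay 921 bp upstream of the start in intergenic DNA, with an exact box within 25 bp of the summit and A or T at all 6 flanking bases. A separate region 3286 bp away held peaks of FUL-AG-SEP3 with a fold of 2.25, of FUL-AG with 2.36, of FUL-SEP3 with 3.41 and of FUL with 4.55. SUP thus had a peak shared by 4 of the mixtures, which was weaker in the FUL-AG-SEP3 list than the FUL-AG-SEP3-only site beside it.

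The site at YUC2 (chr4:7724168-7724400, fold 3.12), which encodes a flavin monooxygenase of auxin synthesis, lay 203 bp upstream of the start. Its exact box was 0.5 bp from the summit, with A or T at all 6 flanking bases, and a box with 1 mismatch lay 70 bp from it. The only other peak with YUC2 as the nearest start was of FUL-SOC1, with a fold of 2.61, at 5476 bp from the site. The site at NGA2 (chr3:22951501-22951745, fold 3.12), a B3-domain gene of style development, lay in the 5' UTR, 322 bp downstream of the start, and peaks of FUL-AG-SEP3 with a fold of 2.54 and of FUL-SOC1 with 3.28 shared a region 791 bp away.

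AGL6, CLV3 and CUC1 were nearest to no peak of any list other than the site. AGL6, a MADS-box gene related to the SEPALLATA genes, had a site with a fold of 2.43 (chr2:18803999-18804217) 95 bp upstream of the start. CLV3, the gene of a signal peptide that limits the stem cells of the shoot, had one with a fold of 2.49 (chr2:11666654-11666931) 1028 bp upstream, with its best box 76.5 bp from the summit. CUC1, a NAC gene of organ borders, had one with a fold of 2.98 (chr3:5107560-5107773) 2127 bp upstream, in an intron of the neighbouring gene AT3G15160, with a pair of boxes 44 bp apart. The sites at AGL6 and CLV3 stood low in the list, with 91.0% and 88.8% of its peaks higher, and that at CUC1 had 60.2% higher.

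AGL16, a MADS-box gene known from stomata and flowering time, had a weak site (chr3:21179735-21179940, fold 2.38, 92.6% of the list higher) in an intron, 2596 bp downstream of the start. The nearest peak of another mixture, of FUL with a fold of 5.24, was 1344 bp away and was shared with FUL-AG (4.25) and FUL-AG-SEP3 (4.45). A further region at AGL16 held peaks of FUL-AG-SEP3 (4.08), FUL-AG (5.10), FUL-SEP3 (3.39) and FUL-SOC1 (4.31). The site was the lowest of the 3 FUL-AG-SEP3 peaks at the gene.

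Among the other transcription-factor genes, grouped by the words of their annotated products, the sites were close to MYB genes in 9 of 180 (5%, 2.65% to 9.23%), homeobox or homeodomain-like genes in 10 of 208 (4.81%, 2.63% to 8.62%), C2H2 zinc-finger genes in 7 of 94 (7.45%, 3.65% to 14.6%), bHLH genes in 4 of 133 (3.01%), NAC genes in 3 of 105 (2.86%) and MADS-box genes in 4 of 120 (3.33%). They were also close to bZIP genes in 4 of 59 (6.78%, 2.67% to 16.2%), B3 domain genes in 5 of 94 (5.32%, 2.29% to 11.9%), auxin response factor and Aux/IAA genes in 1 of 45 (2.22%), WRKY genes in 1 of 72 (1.39%) and ERF and AP2 genes in 1 of 96 (1.04%). The C2H2 interval lay above the 2.65% of all protein-coding genes, those of the bZIP and MYB groups began at about it, and those of the other groups held it. The C2H2 share rests on 7 genes, and no allowance was made for the number of groups looked at. The share with a partnered peak was not taken for these groups, so it is unknown whether any of this was particular to the sites. The C2H2 group held SUP, with a fold of 4.03, and SGR5, a gene of shoot gravitropism, with 3.23. The homeobox or homeodomain-like group held HB53 with 3.62, WOX8, which acts in the early embryo, with 3.39, and PHV, which specifies the upper leaf side, with 2.91. It also held ASG4 with 3.44, MYBC1 with 3.42 and TCL2 with 3.28, so it is wider than the homeobox genes. By the words of its product, MYBC1 was counted there and not in the MYB group. The MYB group held MYB59 with 3.14, MYB111, an activator of flavonol synthesis, with 3.07, and MYB4, a repressor of the phenylpropanoid pathway, with 2.97. The MYB4 site had a pair of boxes 17 bp apart. It lay 1854 bp downstream of the start.

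A pair was also found at LAS, a GRAS-domain gene of side-shoot formation, with a fold of 2.97 and a site 868 bp upstream. NRT1.5, a nitrate transporter gene, had 2 sites, one in an intron with a fold of 3.55 and a pair 17 bp apart, and one 8431 bp upstream with a fold of 3.12. UMAMIT1 had a site 30 bp upstream of its start with a fold of 3.12. These sites were 5745 bp, 6462 bp, 2375 bp and 7700 bp from the nearest peak of another mixture, in the order given.

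The loci at which the study showed FUL-AG-SEP3 binding were not among the sites. At RLP28, a receptor-like protein gene, the FUL-AG-SEP3 peak (fold 4.82) overlapped peaks of FUL-AG (4.24), FUL-SEP3 (3.55) and FUL (4.79). At CSP4, a cold-shock domain gene, it (4.51) overlapped peaks of FUL-AG (3.56) and FUL (4.51). The probe region labelled FAS Target 1 (chr5:7599741-7599840) lay in a FUL-AG-SEP3 peak with a fold of 3.55 and in peaks of FUL-AG (3.08) and FUL-SEP3 (3.19), and FAS Target 2 (chr4:12393701-12393803) in one of 4.29 and in peaks of FUL-AG (3.87), FUL-SEP3 (3.68) and FUL (7.55). No FUL-SOC1 peak was found at these 4 loci. HEC3 had peaks of all 5 mixtures, highest for FUL (12.7), then FUL-SEP3 (6.65), FUL-AG (5.47), FUL-AG-SEP3 (4.83) and FUL-SOC1 (3.57). SPT had none of FUL-AG-SEP3 within 3 kb, and had peaks of FUL (3.95 and 3.31), FUL-AG (3.45) and FUL-SOC1 (3.24).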

How the data were processed

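The 5 deposited lists were narrow peaks, 1 per mixture, which the authors made by trimming reads (Trim Galore), mapping them to TAIR10 (HISAT2) and calling peaks on the 3 replicates combined against the input (MACS2). Versions are not given in the sources used here. The deposited fold enrichment is a ratio to the local background. The deposited -log10 p and -log10 q are those of the peak caller, with q below 0.05, and the deposited score was not used. The lists hold no read counts, so the depth behind a peak is unknown. No column was left unmatched (0).

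Nuclear peaks were merged at 1 bp of overlap. Boxes, pairs and gene parts were read from TAIR10.1, whose nuclear chromosomes have the lengths of TAIR10, and its RefSeq annotation of 37899 genes. The gene named for a site has the nearest start of transcription. Centromeres were set from gene density, since no annotation of them was used. Copies were found with BLAST 2.17.0. Python 3.11.15, NumPy 2.4.6 and Matplotlib 3.10.9 were used. Merging, boxes and spacings were tested on simulated data. Shares have 95% Wilson intervals, and no test was made. Named are the 10 sites with the highest fold, those of listed genes, the border cases and the study's loci, and no site had 2 exact boxes. The pairs and transcription-factor genes otherwise named were chosen after their values were seen. The members and lists were chosen with earlier results of these data known.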

Additional observations from a re-analysis of the deposited data

Results flagged for a closer look

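The FUL-AG-SEP3 list held 21 peaks on the mitochondrial genome, which were outside the comparisons. Of these, 2 overlapped no mitochondrial peak of another mixture, with folds of 1.62 and 1.83. They were listed because they are a signal in data that the comparisons left out.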

How the results depend on the processing

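No paired analysis was possible because the lists hold no values per replicate, and no replicate could be left out. The number of FUL-AG-SEP3-only sites was 1063 with overlaps of 50% of both peaks, 1153 with summits within 100 bp, 931 with peaks widened by 200 bp and 797 with q below 0.0001 in all lists. It was 617 with q below 0.0001 in the FUL-AG-SEP3 list alone, and 156 with the 1000 peaks of smallest p of each list. The median percentile of the sites was 43.3, 43.6 and 83.1 under these last 3 settings. With 1000 peaks each, 14.7% of the sites were in the highest 10% of the list, 10.3% had an exact box and 23.1% a pair. Exact boxes were found in 4.75% with windows of 100 bp and 8.88% with 400 bp. Pairs were found in 5.37% with windows of 100 bp, 29.8% with 400 bp, 20.9% over the whole peak, 88.4% with 2 mismatches per box and 0 with exact boxes only. Partnered peaks had the higher share in all 13 settings for exact boxes, by 5.46 to 13.1 percentage points, and in all 16 for pairs, by 0.490 to 18.2, and the quartiles of the list among these were added after seeing the data. Summits within 2.5 Mb of the centromere, in place of 5 Mb, made up 16.7% of the sites, and pairs within 1 bp of a whole turn, in place of 2 bp, 26.6% of the pairs. Copies of at least 80% identity, also added then, were found for 18.7% of the sites.

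The pooled lists have no error between replicates, and lists of other depth would move sites in or out of the set. Ties in fold limit ranks, and a missing peak is not missing signal.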

Other observations

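The shares of 5 other gene families with a FUL-AG-SEP3-only site ranged from 2.45% to 7.69%, beside 2.65% of all protein-coding genes. Of 653 F-box genes, 16 (2.45%, 1.51% to 3.94%) had a site, led by AT1G53325 with a fold of 3.98. Of 248 cytochrome P450 genes, 9 (3.63%, 1.92% to 6.75%) had one, led by CYP96A1 with 3.34. Of 181 leucine-rich repeat kinase genes, 6 (3.31%, 1.53% to 7.04%) had one, and of 103 pectin lyase-like genes 3 (2.91%). Receptor-like protein genes, whose products sense signals at the cell surface, had sites at 4 of 52 (7.69%, 3.03% to 18.2%): RLP39 with a fold of 3.54, RLP4 with 3.34, RLP12 with 2.65 and RLP42 with 2.43. The interval of this family alone among the 5 lay above the share of all protein-coding genes. It rests on 4 genes, no allowance was made for the number of families, and their shares with a partnered peak were not taken. RLP28 was not among them.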
